A study of Mesocricetus auratus with 24 samples.

Results

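The genes described here make, carry, break down and sense GABA, the main inhibitory transmitter of the brain, or set the chloride gradient on which its fast action depends. They were the 9 genes Gad1, Gad2, Slc32a1, Slc6a11, Abat, Gabbr1, Gabbr2, Slc12a2 and Slc12a5, chosen by name and by function, and all 9 had a probe set that the array's annotation assigns to that gene alone, of 19938 genes in all. Their RNA was measured in the inferior colliculus (IC), the auditory midbrain nucleus in which audiogenic seizures start, of hamsters (Mesocricetus auratus) aged 16 weeks. There were 4 groups of 6 animals with 1 array each: GASH:Sal hamsters exposed to sound, GASH:Sal hamsters not exposed, control Syrian hamsters exposed to sound and control Syrian hamsters not exposed. GASH:Sal is a seizure-prone strain bred from Syrian hamsters in which loud sound triggers convulsions, and the Syrian hamsters served as the seizure-free strain. Exposed animals are called stimulated and their tissue was taken 60 min after the sound and seizures, and unexposed animals are called naïve. The label of each unexposed animal states that it received no sound, while a treatment note common to all animals says that controls were exposed as well, and the labels of the single animals were followed. Within GASH:Sal hamsters the sound and the seizure it triggers cannot be told apart. The arrays carry mouse probes, so hamster RNA was read through mouse sequences, and the signal of one gene cannot be set against that of another. Values are log2 signals after robust multi-array averaging (RMA), on which a difference of 1 is a doubling.

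GABA is made from glutamate by glutamate decarboxylase, whose isoforms are encoded by Gad1 (GAD67, found throughout the neuron) and Gad2 (GAD65, concentrated at terminals), and is loaded into synaptic vesicles by the vesicular carrier encoded by Slc32a1. After release it is cleared by plasma membrane transporters, among them the largely astrocytic GAT-3 encoded by Slc6a11, and degraded by GABA transaminase, the product of Abat. GABA-B receptors are obligate pairs in which the Gabbr1 subunit binds GABA and the Gabbr2 subunit couples to inhibitory G proteins, which open potassium channels and close presynaptic calcium channels. Fast inhibition runs instead through chloride channels, and its sign and strength follow the chloride gradient, which the importer NKCC1 (Slc12a2) and the neuronal extruder KCC2 (Slc12a5) set against each other. The IC is rich in GABAergic neurons and receives further inhibitory input from the brainstem, and altered inhibition there has long been studied in audiogenic seizures.

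The markers fixed for the region and its neighbours did not set the region apart by signal. Percentiles of mean signal over all genes are given here, and such a rank depends on the probe set as well as on the RNA. The 9 measured midbrain and collicular markers had a median percentile of 75.9, between 40.7 for Otx2 and 98.8 for Meis2. The 10 cerebellar markers had a median of 53.5, between 20.3 for Gabra6 and 87.1 for Calb1, and the 6 telencephalic markers one of 58.9, between 1.81 for Neurod6 and 92.9 for Lhx2. Those of choroid plexus and ependyma lay between 19.3 and 53.9 and the general neuronal markers between 88.7 and 99.7. Correlations between arrays over all genes ran from 0.965 to 0.993. A pair of arrays stood apart from the other arrays of their group and naming style, stimulated Syrian replicate 4 (mean r = 0.969) and naïve GASH:Sal replicate 6 (mean r = 0.972). The labels name the animals in 2 styles, one for replicates 1 to 3 and another for replicates 4 to 6 of every group, called label series A and B here. The meaning of these styles is not stated in the labels or the study, so they may or may not be batches. Each group holds 3 arrays of each series, and the label series was a term of the model.

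None of the 9 genes differed between groups after correction, neither for sound nor for strain. The number called (adjusted p under 0.05 over all genes tested, limma) was 0 of 9 for stimulated against naïve GASH:Sal hamsters, for stimulated against naïve Syrian hamsters, for GASH:Sal against Syrian hamsters in either sound condition and for the interaction of strain and sound, and in each of these 5 comparisons the share of all genes called was 0%. Averaged over both strains sound called 0 of the 9 and 0.00502% of all genes, the single gene being the activity marker Fos, and averaged over both sound conditions strain called 0 of the 9 and 0.0100%, the genes being Arl15 and Rasgrf2. For strain in naïve hamsters 13 genes, none of them among the 9, were called without naïve GASH:Sal replicate 6. At an unadjusted p under 0.05 the counts were 1 of the 9 for sound in Syrian hamsters (Gad1), 1 for strain in naïve hamsters (Gad2) and 0 in the remaining 5 comparisons. Over the 7 comparisons between 3.68% and 7.99% of all genes passed that unadjusted threshold. The ranges of the 6 arrays overlapped for every one of the 9 genes in every direct comparison of groups. The share of all genes whose ranges did not overlap was 0.226% for sound in GASH:Sal, 0.291% for sound in Syrian, 0.271% for strain in naïve and 0.251% for strain in stimulated hamsters. In tissue samples such as these, fewer cells of a type and less RNA per cell cannot be told apart. A p that misses the threshold does not show that levels were equal. The 95% intervals, each for 1 gene and not corrected for the number of genes, state what remains possible for the signal of these mouse probes. How far that signal follows hamster RNA was not tested, so a larger change in RNA is not excluded. For sound in GASH:Sal hamsters the intervals of all 9 genes lay between 0.791-fold and 1.19-fold. For sound in Syrian hamsters they lay between 0.789-fold and 1.24-fold. For strain they lay between 0.829-fold and 1.30-fold in naïve and between 0.871-fold and 1.24-fold in stimulated hamsters.

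**Figure D1:**
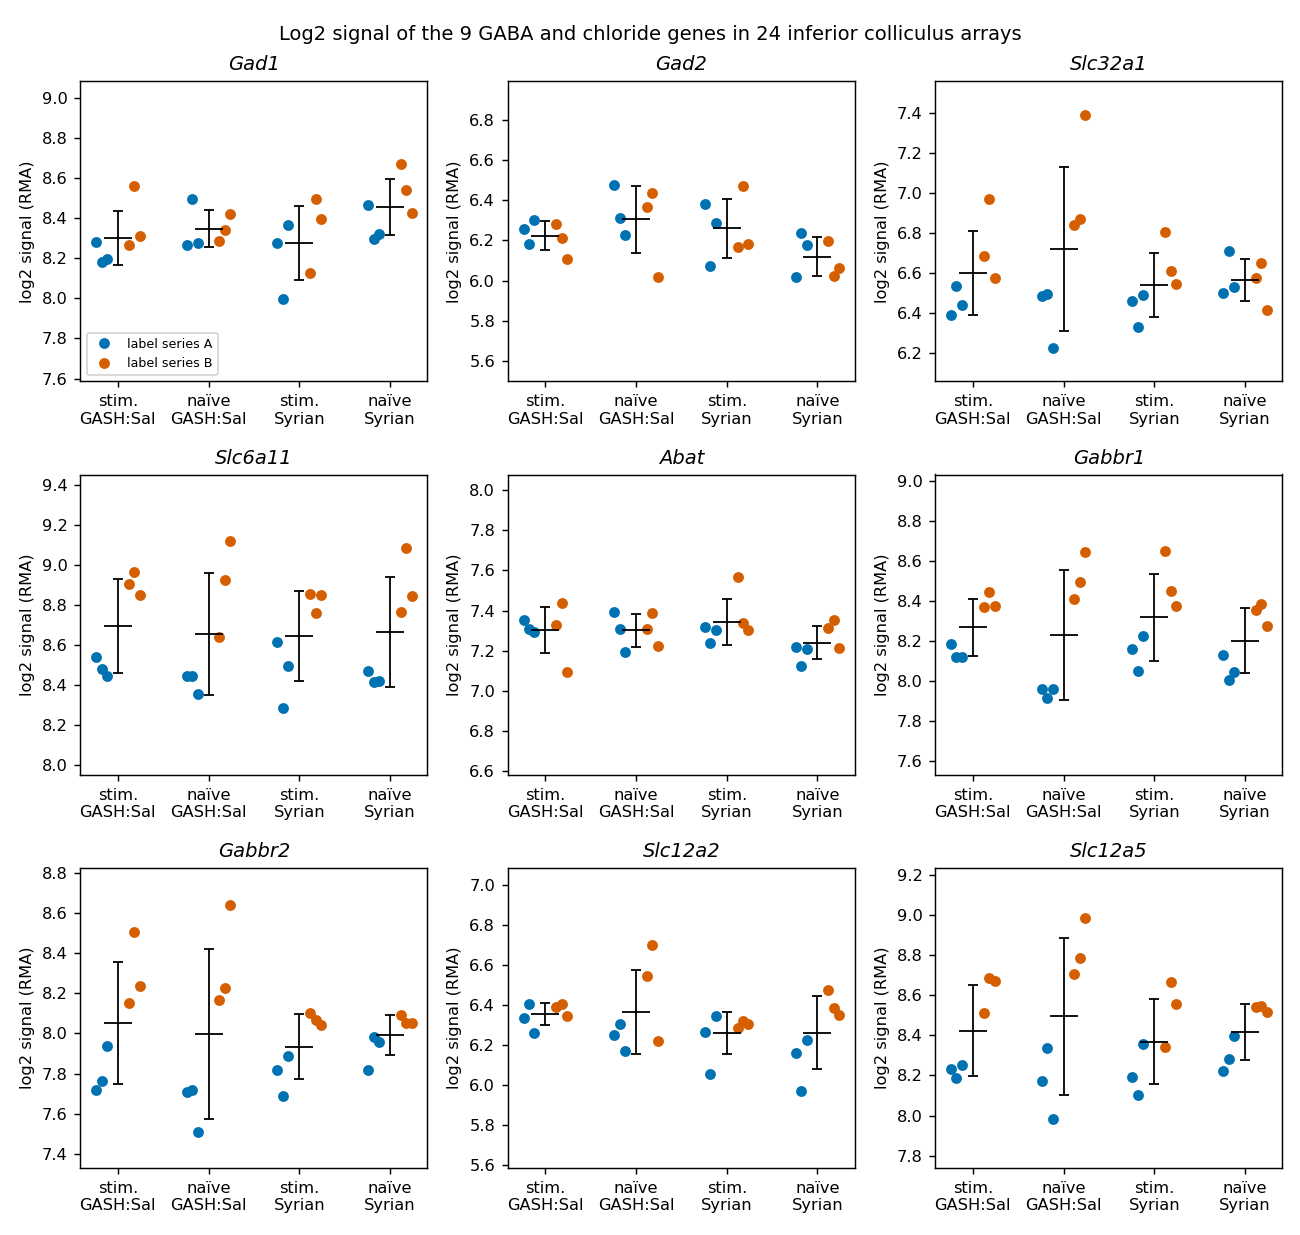
Log2 RMA signal of each gene (vertical axis, 1.5 log2 units high in every panel) per array and group, with label series A in blue and B in orange and the group mean ± SD (n = 6) in black. The 4 groups overlap in every panel, while all arrays of series B lie above those of series A for Slc6a11, Gabbr1 and Gabbr2.

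The GABA-synthesizing enzymes held the only unadjusted p values under 0.05 among the 9 genes. Gad1 signal lay between 8.18 and 8.56 (median 8.27) in GASH:Sal hamsters after sound and between 8.27 and 8.50 (median 8.31) in naïve GASH:Sal hamsters, and between 8.00 and 8.50 (median 8.32) in Syrian hamsters after sound and between 8.30 and 8.67 (median 8.45) in naïve Syrian hamsters. All 4 ranges overlapped, and the lowest array was replicate 2 of the stimulated Syrian group. Gad1 averaged 8.28 ± 0.18 in stimulated and 8.45 ± 0.14 in naïve Syrian hamsters (SD, n = 6 each), a difference of -0.18 (SE 0.0803, 95% interval -0.34 to -0.014, limma adjusted p = 0.741), with 5 of 6 stimulated arrays below the naïve mean. In GASH:Sal hamsters the same difference was -0.047 (95% interval -0.21 to 0.12), and averaged over both strains it was -0.11 (SE 0.0568, 95% interval -0.23 to 0.0032, limma adjusted p = 0.678). The response of Gad1 to sound differed between the strains by 0.13 (95% interval -0.10 to 0.36). Between the strains Gad1 differed by 0.024 (95% interval -0.14 to 0.19) in stimulated and by -0.11 (95% interval -0.27 to 0.058) in naïve hamsters.

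Gad2 had its lowest level in naïve Syrian hamsters. Its signal lay between 6.11 and 6.30 (median 6.24) in GASH:Sal hamsters after sound and between 6.02 and 6.48 (median 6.34) in naïve GASH:Sal hamsters, and between 6.07 and 6.47 (median 6.23) in Syrian hamsters after sound and between 6.02 and 6.24 (median 6.12) in naïve Syrian hamsters. Naïve GASH:Sal hamsters averaged 6.31 ± 0.17 and naïve Syrian hamsters 6.12 ± 0.10 (SD, n = 6 each), so the difference was 0.19 (SE 0.0798, 95% interval 0.025 to 0.35, limma adjusted p = 0.785), with 5 of 6 GASH:Sal arrays above the Syrian mean and 0.19 within series A and 0.18 within series B. The array below that mean was naïve GASH:Sal replicate 6, which stood apart, and without it the difference was 0.24 (limma adjusted p = 0.322). After sound the strains differed by -0.036 (95% interval -0.20 to 0.13). Sound itself gave a difference of -0.082 (95% interval -0.25 to 0.081) in GASH:Sal hamsters, all 6 stimulated arrays lying below the naïve mean, and of 0.14 (95% interval -0.022 to 0.30) in Syrian hamsters, 5 of 6 lying above it. The test of the difference between these responses gave -0.22 (SE 0.113, 95% interval -0.45 to 0.0071, limma adjusted p = 0.99996). The log2 ratio of Gad1 to Gad2, centred on the mean of all arrays, averaged -0.041 ± 0.17 in GASH:Sal hamsters after sound and -0.076 ± 0.22 in naïve GASH:Sal hamsters, and -0.10 ± 0.12 in stimulated and 0.22 ± 0.19 in naïve Syrian hamsters (SD, n = 6 each), the highest being that of naïve Syrian hamsters. This ratio restates the values of both genes, was formed after they had been seen, and was not tested.

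No gene of vesicular loading, uptake or breakdown was called for sound or strain. Slc32a1 signal, for the vesicular GABA transporter, lay between 6.39 and 6.97 (median 6.56) in GASH:Sal hamsters after sound and between 6.23 and 7.39 (median 6.67) in naïve GASH:Sal hamsters, and between 6.33 and 6.81 (median 6.52) in Syrian hamsters after sound and between 6.42 and 6.71 (median 6.55) in naïve Syrian hamsters. Its widest group was naïve GASH:Sal, where replicate 6 reached 7.39, the highest of the 24 arrays. The strain difference in naïve hamsters was 0.15 (95% interval -0.065 to 0.37), made up of -0.18 within series A and 0.49 within series B, and it came to 0.042 without that array (adjusted p = 0.942). For sound the differences were -0.12 (95% interval -0.34 to 0.10) in GASH:Sal and -0.023 (95% interval -0.24 to 0.20) in Syrian hamsters, and for strain in stimulated hamsters 0.058 (95% interval -0.16 to 0.28).

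Slc6a11 signal, for the astrocytic GABA transporter, lay between 8.45 and 8.96 (median 8.69) in GASH:Sal hamsters after sound and between 8.36 and 9.12 (median 8.54) in naïve GASH:Sal hamsters, and between 8.28 and 8.86 (median 8.69) in Syrian hamsters after sound and between 8.42 and 9.08 (median 8.62) in naïve Syrian hamsters. The group means were nearly level, spanning 0.052 log2 units, whereas each group spread over 0.22 to 0.30 log2 units (SD). This spread includes the difference between the label series, and the residual SD with group and series taken off was 0.118. Stimulated minus naïve gave 0.042 (95% interval -0.11 to 0.20) in GASH:Sal and -0.022 (95% interval -0.18 to 0.13) in Syrian hamsters, and GASH:Sal minus Syrian gave 0.052 (95% interval -0.10 to 0.21) in stimulated and -0.012 (95% interval -0.17 to 0.14) in naïve hamsters. Abat, for GABA transaminase, had the narrowest spread of the 9 genes once group and label series were taken off (residual SD 0.0985 log2 units). Its signal lay between 7.09 and 7.44 (median 7.32) in GASH:Sal hamsters after sound and between 7.19 and 7.39 (median 7.31) in naïve GASH:Sal hamsters, and between 7.24 and 7.57 (median 7.31) in Syrian hamsters after sound and between 7.13 and 7.35 (median 7.22) in naïve Syrian hamsters. In Syrian hamsters all 6 stimulated arrays lay above the naïve mean, with a difference of 0.11 (SE 0.0703, 95% interval -0.038 to 0.25, limma adjusted p = 0.811), and the highest was replicate 4, one of the arrays that stood apart. The difference was 0.00025 (95% interval -0.14 to 0.14) in GASH:Sal hamsters. Between the strains Abat differed by -0.043 (95% interval -0.19 to 0.10) in stimulated and by 0.063 (95% interval -0.081 to 0.21) in naïve hamsters.

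The subunits of the GABA-B receptor kept similar group means while their arrays spread widely, in part with the label series. Gabbr1 signal lay between 8.12 and 8.44 (median 8.27) in GASH:Sal hamsters after sound and between 7.91 and 8.64 (median 8.18) in naïve GASH:Sal hamsters, and between 8.05 and 8.65 (median 8.30) in Syrian hamsters after sound and between 8.01 and 8.39 (median 8.20) in naïve Syrian hamsters. Gabbr2 signal lay between 7.72 and 8.51 (median 8.05) in GASH:Sal hamsters after sound and between 7.51 and 8.64 (median 7.94) in naïve GASH:Sal hamsters, and between 7.69 and 8.10 (median 7.96) in Syrian hamsters after sound and between 7.82 and 8.09 (median 8.02) in naïve Syrian hamsters. In both genes the naïve GASH:Sal group was the widest, with SDs of 0.32 for Gabbr1 and 0.42 for Gabbr2, and replicate 6 was its highest array. These SDs include the difference between the label series. With group and label series taken off, the residual SD was 0.103 for Gabbr1 and 0.172 for Gabbr2. Sound gave a Gabbr1 difference of 0.037 (95% interval -0.11 to 0.18) in GASH:Sal hamsters and of 0.12 (SE 0.0715, 95% interval -0.029 to 0.26, limma adjusted p = 0.783) in Syrian hamsters. For Gabbr2 these differences were 0.056 (95% interval -0.14 to 0.25) in GASH:Sal and -0.060 (95% interval -0.26 to 0.14) in Syrian hamsters. The ligand-binding and the G protein-coupling subunit thus showed no difference past the threshold in either strain. GASH:Sal minus Syrian was -0.050 (95% interval -0.20 to 0.096) for Gabbr1 and 0.12 (SE 0.0958, 95% interval -0.077 to 0.31, limma adjusted p = 0.913) for Gabbr2 in stimulated hamsters. In naïve hamsters it was 0.030 (95% interval -0.12 to 0.18) for Gabbr1 and 0.0029 (95% interval -0.19 to 0.20) for Gabbr2, and within the label series these values had opposite signs, -0.12 within series A and 0.18 within series B for Gabbr1 and -0.27 within series A and 0.28 within series B for Gabbr2. Without naïve GASH:Sal replicate 6 they were -0.019 for Gabbr1 and -0.091 for Gabbr2.

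Neither chloride cotransporter differed between groups past the threshold, and the group means of their ratio differed by less than the SD of any group. Slc12a2 signal, for the importer NKCC1, lay between 6.26 and 6.40 (median 6.37) in GASH:Sal hamsters after sound and between 6.17 and 6.70 (median 6.28) in naïve GASH:Sal hamsters, and between 6.06 and 6.35 (median 6.29) in Syrian hamsters after sound and between 5.97 and 6.48 (median 6.29) in naïve Syrian hamsters. Averaged over both sound conditions GASH:Sal hamsters differed from Syrian hamsters by 0.099 (SE 0.0554, 95% interval -0.014 to 0.21, limma adjusted p = 0.648), and the strain difference was 0.094 (95% interval -0.066 to 0.25) in stimulated hamsters, 5 of 6 GASH:Sal arrays lying above the Syrian mean, and 0.10 (95% interval -0.056 to 0.26) in naïve hamsters. Sound gave -0.0094 (95% interval -0.17 to 0.15) in GASH:Sal and 0.00097 (95% interval -0.16 to 0.16) in Syrian hamsters.

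Slc12a5 signal, for the extruder KCC2, lay between 8.19 and 8.69 (median 8.38) in GASH:Sal hamsters after sound and between 7.98 and 8.99 (median 8.52) in naïve GASH:Sal hamsters, and between 8.10 and 8.67 (median 8.35) in Syrian hamsters after sound and between 8.22 and 8.55 (median 8.46) in naïve Syrian hamsters. Sound gave -0.072 (95% interval -0.25 to 0.10) in GASH:Sal and -0.049 (95% interval -0.22 to 0.12) in Syrian hamsters, and GASH:Sal minus Syrian gave 0.054 (95% interval -0.12 to 0.23) in stimulated and 0.077 (95% interval -0.096 to 0.25) in naïve hamsters. The last value was made up of -0.14 within series A and 0.29 within series B, and it came to 0.015 without naïve GASH:Sal replicate 6, whose Slc12a5 signal of 8.99 was the highest of the 24 arrays. The log2 ratio of Slc12a5 to Slc12a2, centred on the mean of all arrays, averaged -0.048 ± 0.21 in GASH:Sal hamsters after sound and 0.014 ± 0.34 in naïve GASH:Sal hamsters, and -0.0080 ± 0.16 in stimulated and 0.042 ± 0.092 in naïve Syrian hamsters (SD, n = 6 each). The means differed by less than the SD of any group. These SDs include the difference between the label series, which was 0.40 for Slc12a5 and 0.16 for Slc12a2. Whether the ratio differed between groups was not tested. This ratio holds a difference between groups only, since the probe sets of the 2 genes need not give the same signal per transcript.

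**Figure D2:**
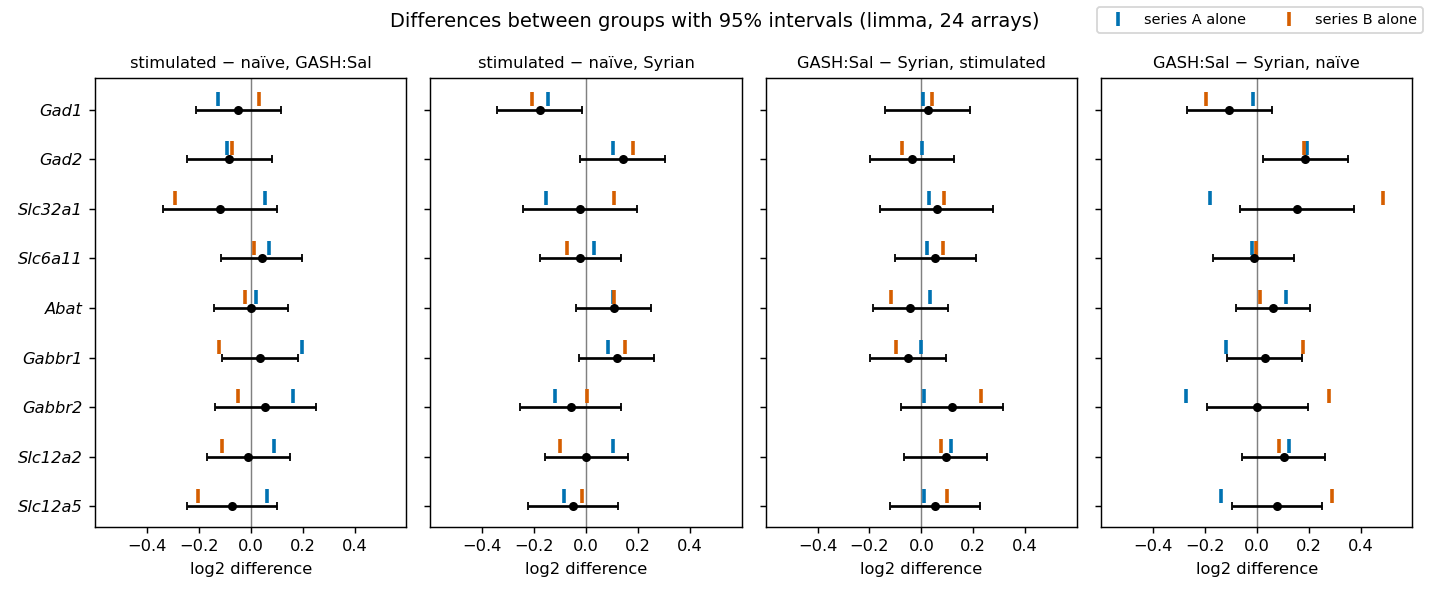
Log2 difference (horizontal axis) of each gene in the 4 direct comparisons of groups, as the limma estimate over 24 arrays with its 95% interval (black), and the same difference in label series A alone (blue) and B alone (orange). All estimates lie between -0.18 and 0.19. The intervals of Gad1 for sound in Syrian hamsters and of Gad2 for strain in naïve hamsters leave out 0 before correction.

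The 9 genes were not set apart from the rest of the array in the size of their differences. Their median absolute difference was 0.047 against 0.061 over all genes for sound in GASH:Sal hamsters, 0.060 against 0.069 for sound in Syrian hamsters, 0.052 against 0.065 for strain in stimulated and 0.077 against 0.066 for strain in naïve hamsters. Of the 9, 4 lay above 0 and 5 below for sound in either strain. For strain averaged over the sound conditions 7 lay above 0 and 2 below, with a median of 0.061 against -0.015 over all genes. Of these 7, Slc32a1, Gabbr2 and Slc12a5 lay below 0 within series A and Abat within series B. The shift was not particular to the 9 genes. For the same comparison 10 of 12 general neuronal markers (median 0.066) and 9 of 10 oligodendrocyte markers (median 0.073) lay above 0. By contrast, 6 of 8 glutamatergic and 6 of 8 meningeal markers lay below 0.

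The label series, by contrast, separated 5 of the 9 genes, all higher in series B, where 6.89% of all genes were called (1171 of 1374 higher in B). Calls were more frequent among genes of higher signal, and 1558 genes were called when those at or above the median signal were tested alone. All 9 genes lie in that part, at percentiles of mean signal between 83.9 and 99.1. Slc6a11 was between 8.64 and 9.12 in series B and between 8.28 and 8.62 in series A, a log2 difference of 0.43 (SE 0.0540, limma adjusted p = 8.83e-06). Gabbr1 was between 8.28 and 8.65 in series B and between 7.91 and 8.22 in series A, a difference of 0.36 (SE 0.0506, limma adjusted p = 3.47e-05). Gabbr2 was between 8.04 and 8.64 in series B and between 7.51 and 7.98 in series A, a difference of 0.40 (SE 0.0677, limma adjusted p = 0.000298). The 12 arrays of series B did not overlap the 12 of series A in these 3 genes, as in 0.291% of all genes. Slc12a5 was higher by 0.40 in series B (SE 0.0600, limma adjusted p = 8.09e-05) and Slc32a1 by 0.28 (SE 0.0759, limma adjusted p = 0.0214), with overlapping ranges. The remaining 4 genes did not pass, with differences of 0.16 for Slc12a2 (adjusted p = 0.0709), 0.12 for Gad1 (adjusted p = 0.241), 0.050 for Abat (adjusted p = 0.645) and -0.032 for Gad2 (adjusted p = 0.815). The synthesizing enzymes and the transaminase therefore showed no called difference where both receptor subunits, GAT-3, the vesicular transporter and KCC2 did, although the difference between these genes was not tested. This comparison was added after the values had been seen, and it is not a comparison of the study.

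Within the groups the step between the label series was not equally large for all of these genes. Slc6a11 averaged, in series B against series A, 8.91 against 8.49 in GASH:Sal hamsters after sound and 8.89 against 8.42 in naïve GASH:Sal hamsters, and 8.82 against 8.47 in Syrian hamsters after sound and 8.90 against 8.44 in naïve Syrian hamsters (n = 3 each). The step was similar in each group. Gabbr2 averaged 8.30 against 7.81 in GASH:Sal hamsters after sound and 8.35 against 7.64 in naïve GASH:Sal hamsters, and 8.07 against 7.80 in Syrian hamsters after sound and 8.07 against 7.92 in naïve Syrian hamsters, widest in naïve GASH:Sal and narrowest in naïve Syrian hamsters. Slc32a1 averaged 6.74 against 6.46 in GASH:Sal hamsters after sound and 7.04 against 6.40 in naïve GASH:Sal hamsters, and 6.66 against 6.43 in Syrian hamsters after sound and 6.55 against 6.58 in naïve Syrian hamsters, so that in naïve Syrian hamsters series B was not the higher one. Whether the step differed between groups was not tested.

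**Figure D3:**
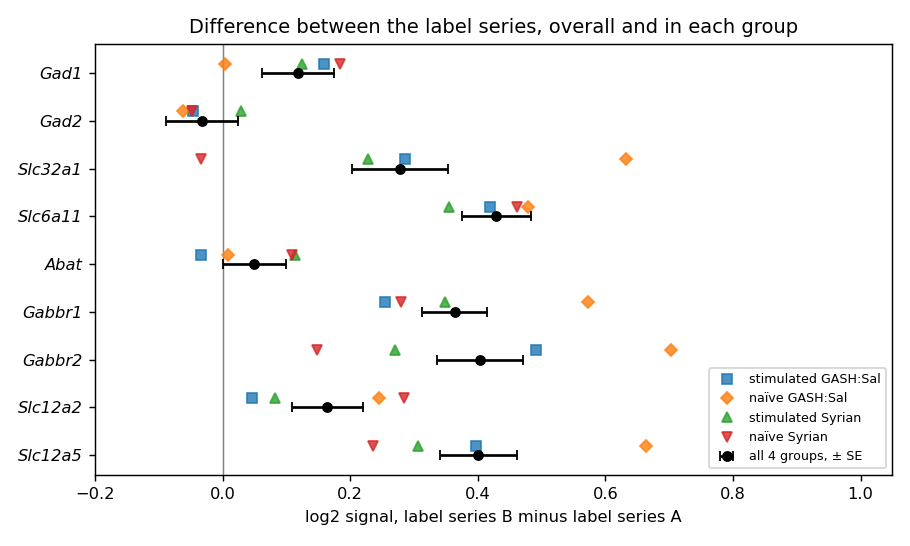
Difference in log2 signal between label series B and A (horizontal axis) for each gene, as the limma estimate over all 24 arrays ± SE (black) and as the difference of the means of 3 arrays each within every group (coloured symbols). Gad1, Slc6a11, Gabbr1, Gabbr2, Slc12a2 and Slc12a5 lie to the right of 0 in all 4 groups, Gad1 only just so in naïve GASH:Sal hamsters. Gad2 lies close to 0.

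In the lists of other pathway genes the label series called 5 of 16 genes of GABA synthesis, uptake and breakdown, 5 of 25 GABA-B signalling partners, 5 of 22 genes of the chloride gradient, 2 of 14 GABAergic transcription factors, 3 of 13 other GABAergic neuron markers and 0 of 8 genes that control Slc12a5, against 6.89% of all genes. All of these calls were higher in series B. The 6.89% covers genes of every signal level, and calls were more frequent among genes of higher signal. The taurine and GABA carrier genes Slc6a6 and Slc6a12 differed by 0.51 (SE 0.0707, limma adjusted p = 3.67e-05) and 0.34 (SE 0.0899, limma adjusted p = 0.0157), the calcium channel gene Cacna1a, whose channel GABA-B receptors inhibit, by 0.36 (adjusted p = 0.000488), and the chloride channel gene Clcn2 by 0.24 (adjusted p = 0.00176). Of the general neuronal markers 6 of 12 were called higher in series B, against the same 6.89% of all genes, their mean log2 signal ranging from 7.89 to 8.17 in series B and from 7.79 to 8.05 in series A. Of the astrocyte markers 3 of 12 were called higher, with ranges of 6.57 to 6.81 in series B and 6.53 to 6.70 in series A, and of the oligodendrocyte markers 3 of 10, with ranges of 5.96 to 6.22 in series B and 5.76 to 6.15 in series A. Calls higher in series B numbered 2 of 8 among glutamatergic, 1 of 8 among vessel, 2 of 10 among cerebellar, 2 of 6 among telencephalic and 1 of 9 among midbrain and collicular markers. The glycinergic markers held 1 call higher, Slc6a9, and 1 lower of 6, the glycine receptor gene Glra3 at -0.62 (SE 0.155, limma adjusted p = 0.0120). The microglial, choroid plexus, meningeal and activity gene lists held 0 calls. The part of these markers in the difference of the 5 genes was not tested. Each group holds 3 arrays of each series, so this difference is balanced over the comparisons of strain and sound.

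The wider GABA and chloride pathway gave no call for sound or strain. In the list of other genes of GABA synthesis, uptake and breakdown 16 of 20 were measured and 0 of 16 were called in any of the 7 comparisons. The lowest unadjusted p values there belonged to Pdxk, for the kinase that makes the cofactor of GAD and GABA transaminase, at -0.14 for sound averaged over strains (SE 0.0559, limma adjusted p = 0.595), and to the glutamine carrier gene Slc38a5 at -0.14 for strain (SE 0.0526, limma adjusted p = 0.579). Glul, for the glutamine synthetase of astrocytes, stood at -0.11 for sound (adjusted p = 0.678), Slc6a13, for the GABA transporter GAT-2 of meninges and vessels, at -0.21 for strain (adjusted p = 0.603), and Aldh5a1, for the enzyme after GABA transaminase, at 0.10 for sound (adjusted p = 0.691).

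Of the signalling partners of GABA-B receptors all 25 were measured and 0 of 25 were called. Kctd8, for an auxiliary subunit of the receptor, stood at -0.13 for sound averaged over strains (SE 0.0517, limma adjusted p = 0.595), made up of -0.0026 (adjusted p = 0.999) in GASH:Sal and -0.25 (adjusted p = 0.637) in Syrian hamsters. Ppp2ca, for a catalytic subunit of protein phosphatase 2A, stood at 0.21 (SE 0.0947, limma adjusted p = 0.638), made up of 0.46 within series A and -0.029 within series B. Gnai2, for an inhibitory G protein subunit, stood at 0.15 for strain averaged over sound conditions (SE 0.0608, limma adjusted p = 0.596) and Prrt3 at -0.13 (adjusted p = 0.618). The Gnai2 value was made up of 0.021 within series A and 0.28 within series B. The auxiliary subunit gene Kctd12 stood at -0.027 for strain (adjusted p = 0.924), made up of 0.096 (adjusted p = 0.917) in stimulated and -0.15 (adjusted p = 0.829) in naïve hamsters. The responses of Kctd8 and Kctd12 to sound differed between the strains by 0.25 in each gene (limma adjusted p = 0.99996 for both). The potassium channel genes Kcnj3 and Kcnj6, whose channels the receptor opens, stood at 0.026 (adjusted p = 0.938) and 0.058 (adjusted p = 0.799). None of these values passed, and the signs within the list were mixed, with 14 of 25 above 0 for strain and 12 of 25 above 0 for sound.

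In the list of other genes taken to bear on the chloride gradient 22 of 24 were measured and 0 of 22 were called. Wnk3 and Wnk1 encode kinases that, with the kinase encoded by Stk39, switch NKCC1 on and KCC2 off. Wnk3 stood at 0.19 for strain averaged over sound conditions (SE 0.0740, limma adjusted p = 0.590), Wnk1 at 0.17 (adjusted p = 0.654) and Stk39 at -0.12 (adjusted p = 0.683). Slc12a7, for the extruder KCC4, stood at -0.14 for strain (SE 0.0649, limma adjusted p = 0.610). For sound, Clcn3, for a chloride and proton exchanger of endosomes and synaptic vesicles, stood at 0.13 (adjusted p = 0.673) and Car8 at 0.17 (adjusted p = 0.678). Both values came from series A, with 0.27 for Clcn3 and 0.35 for Car8. Within series B they were -0.0091 and -0.019. Whether Car8 bears on the chloride gradient was not tested.

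Among the 8 genes known to control Slc12a5 or its protein 0 of 8 were called. Bdnf, for the neurotrophin that lowers KCC2 in injured or overactive neurons, stood at 0.11 for sound averaged over strains (SE 0.0478, limma adjusted p = 0.640), and Egr4, for a transcription factor that activates the Slc12a5 promoter, at 0.17 (SE 0.0808, limma adjusted p = 0.655). Egr4 averaged 6.13 ± 0.22 in GASH:Sal hamsters after sound and 5.72 ± 0.067 in naïve GASH:Sal hamsters, and 5.83 ± 0.32 in stimulated and 5.89 ± 0.17 in naïve Syrian hamsters (SD, n = 6 each). Bdnf averaged 5.18 ± 0.13 in GASH:Sal hamsters after sound and 4.97 ± 0.10 in naïve GASH:Sal hamsters, and 5.17 ± 0.085 in stimulated and 5.16 ± 0.047 in naïve Syrian hamsters (SD, n = 6 each). Both genes were at their lowest mean in naïve GASH:Sal hamsters, and their responses to sound differed between the strains by 0.47 for Egr4 and 0.20 for Bdnf (limma adjusted p = 0.99996 for both). This difference between the strains was 0.17 within series A and 0.77 within series B for Egr4, and 0.13 and 0.26 for Bdnf. In Syrian hamsters the Egr4 response to sound was 0.15 within series A and -0.28 within series B. Capn1, for a calpain that cleaves KCC2, stood at -0.11 for strain (adjusted p = 0.672).

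Markers of the GABAergic neurons themselves were not called for sound or strain. Of the transcription factors of GABAergic neurons 14 of 16 were measured and 0 of 14 were called, Dlx6 standing at 0.13 for sound (adjusted p = 0.655), and Lhx1 at 0.13 (adjusted p = 0.627) and Dlx2 at -0.16 (adjusted p = 0.603) for strain. Of the other GABAergic neuron markers 13 of 15 were measured and 0 of 13 were called. Lamp5, a membrane protein of a class of GABAergic neurons, stood at 0.21 for sound averaged over strains (SE 0.0750, limma adjusted p = 0.531) and at 0.18 for strain (SE 0.0750, limma adjusted p = 0.601). Its difference with sound was 0.051 (adjusted p = 0.999) in GASH:Sal and 0.38 (adjusted p = 0.637) in Syrian hamsters, and that with strain 0.020 (adjusted p = 0.992) in stimulated and 0.35 (adjusted p = 0.713) in naïve hamsters, so that the responses to sound differed by -0.33 (SE 0.150, limma adjusted p = 0.99996). In this list 4 of 13 genes had an unadjusted p under 0.05 for sound in Syrian hamsters, against 6.64% of all genes. For the interaction of strain and sound it was 2 of 13, against 3.68%. For strain averaged over sound conditions it was 4 of 13, against 7.99%, with 6 above 0 and 7 below. For the interaction 11 of 13 lay below 0, with a median of -0.13 against -0.0030 over all genes. The shift was not particular to this list. For the interaction 7 of 9 midbrain and collicular and 5 of 6 glycinergic markers also lay below 0, whereas 7 of 8 meningeal markers lay above 0. Sound in Syrian hamsters gave 3 of 9 midbrain and collicular markers an unadjusted p under 0.05. The interaction and sound in Syrian hamsters use the same Syrian arrays. Nxph1 stood at 0.13 for sound (adjusted p = 0.655) and Reln at 0.13 for strain (adjusted p = 0.601). The glutamatergic marker Slc17a6 stood at 0.20 for sound (SE 0.0945, limma adjusted p = 0.661). It was 1 of 8 measured glutamatergic markers, of which 5 lay above 0 and 3 below for sound averaged over strains. Of these 8, 0 were called and 1 had an unadjusted p under 0.05, against 7.39% of all genes. The astrocyte markers, the cells in which Slc6a11 is mostly found, gave 0 of 12 called in each comparison of strain and sound.

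Within the groups, the deviations of single animals were compared between the genes. For each gene the mean of its group within its label series was taken off, and the 36 pairs were correlated over the 24 arrays, with permutation of the arrays within group and label series. Adjusted p values under 0.05 were reached by 4 of 36 pairs with Pearson's r, all above 0, and by 0 of 36 with both coefficients. Of the 36 pairs 27 had an r above 0, as did 51.5% of all pairs of the 19938 genes. The closest pair was Slc32a1 and Gabbr2 (r = 0.84, permutation p = 0.00209, adjusted p = 0.0385, rho = 0.78, permutation p = 0.00170, adjusted p = 0.0544). Its r was 0.71 in series A and 0.89 in series B, 0.70 without the 2 arrays farthest from the median and 0.77 without naïve GASH:Sal replicate 6. An r at least as high was held by 0.0330% of all gene pairs, and by 0.786%, 0.460% and 6.59% for the 3 pairs that follow. Gabbr2 and Slc12a5 gave r = 0.66 (permutation p = 0.00225, adjusted p = 0.0385, rho = 0.69, permutation p = 0.00302, adjusted p = 0.0544) and 0.60 without the 2 farthest arrays. Gad1 and Slc12a5 gave r = 0.70 (permutation p = 0.00441, adjusted p = 0.0397, rho = 0.63, permutation p = 0.00975, adjusted p = 0.0877) and 0.60 without the 2 farthest arrays. Abat and Slc12a2 gave r = 0.44 (permutation p = 0.00321, adjusted p = 0.0385, rho = 0.45, permutation p = 0.0244, adjusted p = 0.126) and 0.55 without the 2 farthest arrays. The pairs within a role did not pass, with r = 0.22 for Gad1 and Gad2 (adjusted p = 0.676), 0.46 for Gabbr1 and Gabbr2 (permutation p = 0.0581, adjusted p = 0.232), and 0.05 for Slc12a2 and Slc12a5 (adjusted p = 0.886). Within series A and series B the r of Gad1 and Gad2 was 0.21 and 0.22. For Gabbr1 and Gabbr2 it was -0.038 within series A and 0.66 within series B. For Slc12a2 and Slc12a5 it was 0.60 within series A and -0.43 within series B. All values of an array share its RNA, its dissection and its hybridisation.

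**Figure D4:**
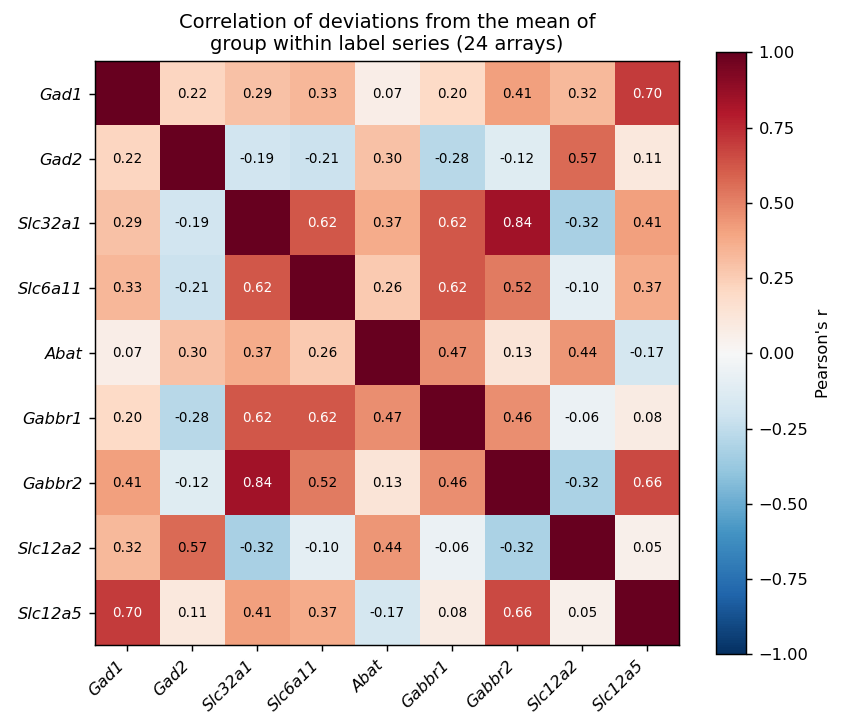
Pearson's r between the 9 genes over 24 arrays, after the mean of each group within each label series was taken off, on a colour scale running between -1 in blue and 1 in red. Slc32a1 and Gabbr2 hold the highest value (0.84), and Slc32a1 and Gabbr2 with Slc12a2 hold the lowest (-0.32 each). Without naïve GASH:Sal replicate 6 these lowest values were -0.015 for Slc32a1 and -0.0052 for Gabbr2. They were 0.23 and 0.24 within series A, and -0.60 and -0.65 within series B.

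Over all genes, the genes whose deviations most resembled those of each member were found in the same way, as a description over the 24 arrays. For the synthesizing enzymes they were Timm8a2 for Gad1 (r = 0.80) and Cdh18, for a cadherin, for Gad2 (r = 0.87). For Slc32a1 the closest was Rnf10 (r = 0.91), for Slc6a11 it was Tril (r = 0.85) and for Abat it was Herc6 (r = 0.88). For the receptor subunits the closest were Ap2b1, for a clathrin adaptor subunit, with Gabbr1 (r = 0.89) and Rab11b, for a small GTPase of recycling endosomes, with Gabbr2 (r = 0.90). For the chloride cotransporters they were Slc7a14 with Slc12a2 (r = 0.89) and Jade2 with Slc12a5 (r = 0.81). Each is the highest of 19938 genes.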

How the data were processed

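RNA of 24 inferior colliculi was hybridised to Mouse Gene 1.0 ST arrays, and the authors deposited log2 signals processed with RMA, named without a version in the submitters' processing notes. The table held 35556 probe sets, of which 21789 had 1 gene symbol, and each of 19938 genes was represented by its probe set of highest mean signal. Each of the 9 members had 1 such probe set. Differences were fitted with limma (version 3.58.1, R version 4.3.3), lmFit and eBayes at their defaults, over all 24 arrays with terms for the 4 groups and the label series, leaving 19 residual degrees of freedom. P-values were two-sided, adjusted by the Benjamini-Hochberg method over all genes, with a threshold of 0.05. The labels call the arrays biological replicates. Arrays give no read depth, so their number limits the precision. Correlations used 100000 permutations within group and label series.

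The members and gene lists were chosen with earlier results of these data known. Named genes were the members, for each list the 2 genes with the lowest p for sound and for strain, any called, and 10 fixed names, while genes of the label series and the tissue markers at the ends of their lists were chosen after their values were seen. Of the listed genes 17 had no probe set of their own and were not analysed here. Same-numbered arrays were not paired: of 24 such pairs 2 correlated above 0.1 after group and label series means were taken off (-0.21 to 0.12).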

Additional observations from a re-analysis of the deposited data

Results flagged for a closer look

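In 3 of the 36 sets of 6 arrays formed by the 9 genes and 4 groups, 1 array lay far from the other 5 by Dixon's test, which chance alone does in about 1 of 20 sets. Stimulated GASH:Sal replicate 5 had the highest Gad1 signal of its group, 8.56, the next array lying at 8.31. Stimulated Syrian replicate 4, an array that stood apart over all genes, had an Abat signal of 7.57, the next lying at 7.34. Stimulated Syrian replicate 2 had the lowest Slc12a2 signal of its group, 6.06, the next lying at 6.26.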

How the results depend on the processing

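Under 12 alternatives and the omission of each array in turn, 0 settings called any of the 9 genes for sound or strain, the lowest adjusted p being 0.198 (limma, Gad2 for strain in naïve hamsters without the 2 arrays that stood apart, a setting chosen after seeing the data). Of 72 log2 differences of single genes 37 kept their sign throughout, and the others, none of them called, turned in at least 1 setting. The 72 include the differences between the label series, which cannot be formed within a single series and of which only that of Gad2 turned. The replicate number as a block left the estimates unchanged, with 0 of the 9 genes called in each comparison, and Gad1 for sound in Syrian hamsters stayed at -0.18 (limma adjusted p = 0.792). The label series comparison called 5 or 6 of the 9 genes in every setting run, the additional gene being Slc12a2, at 0.16 among genes above the median signal (adjusted p = 0.0404), 0.18 with array weights (adjusted p = 0.0225), 0.20 when both outlying arrays were left out (adjusted p = 0.0233), 0.19 without naïve GASH:Sal replicate 6 (adjusted p = 0.0309) and 0.18 without stimulated Syrian replicate 3 (adjusted p = 0.0483). Among all genes the calls moved more, sound over both strains giving 1 and 444 in label series A alone, and strain over both sound conditions 2 and, without naïve GASH:Sal replicate 6, 36. Strain in naïve hamsters gave 0 genes, 13 without naïve GASH:Sal replicate 6, 64 without both outlying arrays and 18 with array weights. The cause was not tested. The intervals given show how closely 6 arrays a group fix each difference in signal.

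In label series A alone the reversed log2 differences were, for sound in GASH:Sal Slc32a1 0.054, Slc12a2 0.091 and Slc12a5 0.062, for sound in Syrian Slc6a11 0.031, for strain in naïve Slc32a1 -0.18, Gabbr1 -0.12, Gabbr2 -0.27 and Slc12a5 -0.14, for strain in stimulated Gad2 0.0018 and Abat 0.031, for strain difference in the sound response Slc32a1 0.21, Gabbr1 0.11 and Slc12a5 0.15, for sound over both strains Gabbr2 0.021 and Slc12a2 0.097, for strain over both sound conditions Slc32a1 -0.075, Gabbr2 -0.13 and Slc12a5 -0.064. In label series B alone the reversed log2 differences were, for sound in GASH:Sal Gad1 0.031, Abat -0.021, Gabbr1 -0.12 and Gabbr2 -0.049, for sound in Syrian Slc32a1 0.11, Gabbr2 0.0017 and Slc12a2 -0.10, for strain difference in the sound response Gabbr2 -0.051, for sound over both strains Slc6a11 -0.032, for strain over both sound conditions Abat -0.052 and Gabbr1 0.040. With arrays centred on their medians the reversed log2 differences were, for sound in GASH:Sal Abat -0.014, for sound in Syrian Slc12a2 -0.0056, for strain in naïve Slc6a11 0.020, for sound over both strains Slc6a11 -0.00067, for strain over both sound conditions Gabbr1 0.018. With quantile normalisation the reversed log2 differences were, for sound in Syrian Slc12a2 -9.1e-05, for strain in naïve Gabbr1 -0.010 and Gabbr2 -0.029, for strain difference in the sound response Slc12a5 0.0015, for sound over both strains Gabbr2 0.0087, for strain over both sound conditions Slc6a11 -0.0047 and Abat -0.015. With array weights the reversed log2 differences were, for sound in GASH:Sal Abat -0.0099, for sound in Syrian Slc12a2 -0.0088, for strain in naïve Gabbr1 -0.032 and Gabbr2 -0.070, for strain difference in the sound response Slc32a1 0.0057, Gabbr1 0.017 and Slc12a5 0.0093, for sound over both strains Gabbr2 0.028, for label series Gad2 0.00039. Without the 2 arrays that stood apart the reversed log2 differences were, for sound in GASH:Sal Abat -0.019, for strain in naïve Gabbr1 -0.021 and Gabbr2 -0.091, for strain in stimulated Gad1 -0.020, for strain difference in the sound response Slc32a1 0.051 and Gabbr1 0.0040, for sound over both strains Gabbr2 0.046, for strain over both sound conditions Slc6a11 -0.0047, for label series Gad2 0.0063. Leaving out each array in turn gave, where the sign turned, these ranges, for sound in GASH:Sal Slc6a11 -0.0066 to 0.094, Abat -0.023 to 0.050, Gabbr2 -0.0035 to 0.15, Slc12a2 -0.057 to 0.043, for sound in Syrian Slc32a1 -0.083 to 0.037, Slc6a11 -0.062 to 0.020, Slc12a2 -0.043 to 0.029, for strain in naïve Slc6a11 -0.064 to 0.037, Gabbr1 -0.019 to 0.059, Gabbr2 -0.091 to 0.063, for strain in stimulated Gad1 -0.021 to 0.058, Gad2 -0.079 to 0.012, Abat -0.066 to 0.0068, for strain difference in the sound response Slc32a1 -0.17 to 0.017, Slc12a2 -0.058 to 0.043, Slc12a5 -0.088 to 0.039, for sound over both strains Slc6a11 -0.014 to 0.036, Gabbr2 -0.032 to 0.045, Slc12a2 -0.028 to 0.022, for strain over both sound conditions Slc6a11 -0.0057 to 0.045, Abat -0.0023 to 0.035, Gabbr1 -0.035 to 0.0055.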
